A study of Mus musculus with 12 samples.

Results

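The comparison asked what monosodium glutamate (MSG), a flavour enhancer, did to liver gene expression when it was the only additive in a trans fatty acid (TFA) diet. It set the 3 arrays of MSG + TFA mice against the 3 arrays of TFA control mice, 6 of the 12 liver arrays of the series, as the sample labels assigned them. The mice were male C57Bl/6J offspring aged 20 weeks, fasted overnight before collection. All of them, controls included, ate a diet with 20% w/w partially hydrogenated vegetable shortening. Trans fatty acids made up 8.68% w/w of the diet. The MSG + TFA mice also had MSG at 0.75 g/L in their drinking water, and the TFA mice had no additive. The dams had been placed on the same diets at 6 weeks of age, 3 weeks before mating, so exposure began in utero and went on after weaning at 4 weeks. RNA from the livers of 5 mice was pooled for an array, and 3 such pools made up the 15 mice of a diet. No group without TFA was compared here, and no females. The remaining 6 arrays were from ASP + TFA mice, given aspartame at 0.25 g/L, and ASP + MSG + TFA mice, given both additives, and allowed the effect of MSG to be measured a second time in pools that shared no array with the first.

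Dietary glutamate is sensed in the mouth as umami by a receptor of the Tas1r family, while the Tas2r family senses bitter compounds. Most swallowed glutamate is burned by the intestinal wall, and the liver takes up glutamate and glutamine, feeds their nitrogen into the urea cycle near the portal vein and rebuilds glutamine in the cells around the central vein. A liver fed on fat turns on oxidation genes through the nuclear receptor PPARα and adjusts cholesterol synthesis through SREBP2. The results below are ordered from the genes that passed the test to these pathways.

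The array was the Affymetrix Mouse Gene 1.0 ST, which reads most genes with several probe sets along their exons. A gene value was the mean log2 intensity of the probe sets annotated to that gene alone, which gave 20422 genes with a median of 8 probe sets. The arrays were alike in overall signal, with medians of 6.91 to 6.96 on the log2 scale. Differences were tested in a single limma model of the 12 arrays, with Benjamini-Hochberg adjustment over all genes. The p-values measured the spread between pools, and their number limited the precision. An exact two-sided permutation test of 3 pools against 3 cannot give a p below 0.10.

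MSG changed few transcripts by this test. At an adjusted p under 0.05, 4 of 20422 genes (0.0196%) were differentially expressed, 1 higher (0.0049%) and 3 lower (0.0147%). An unadjusted p under 0.05 was found for 5.81% of genes. Of these, 565 genes were higher (2.77%) and 622 lower (3.05%) in MSG + TFA livers. In 1317 genes (6.45%) all MSG + TFA pools lay above all TFA pools, and in 1378 (6.75%) they lay below. The median difference of a gene was 0.075 on the log2 scale, whatever its direction, and 99% of genes differed by less than 0.44. In 11 genes the difference was at least 2-fold, 2 higher and 9 lower. The counts of differentially expressed genes were 3 higher and 9 lower when only the 6 arrays compared were fitted, and 2 higher and 12 lower with weights for array quality. Single probe sets gave no call with an adjusted p under 0.05 and a change of at least 1.4-fold in limma, against 5259 higher (2.48%) and 6162 lower (2.90%) at that fold with an unadjusted p under 0.05. A plain one-way analysis of variance called 0 probe sets too.

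**Figure D1:**
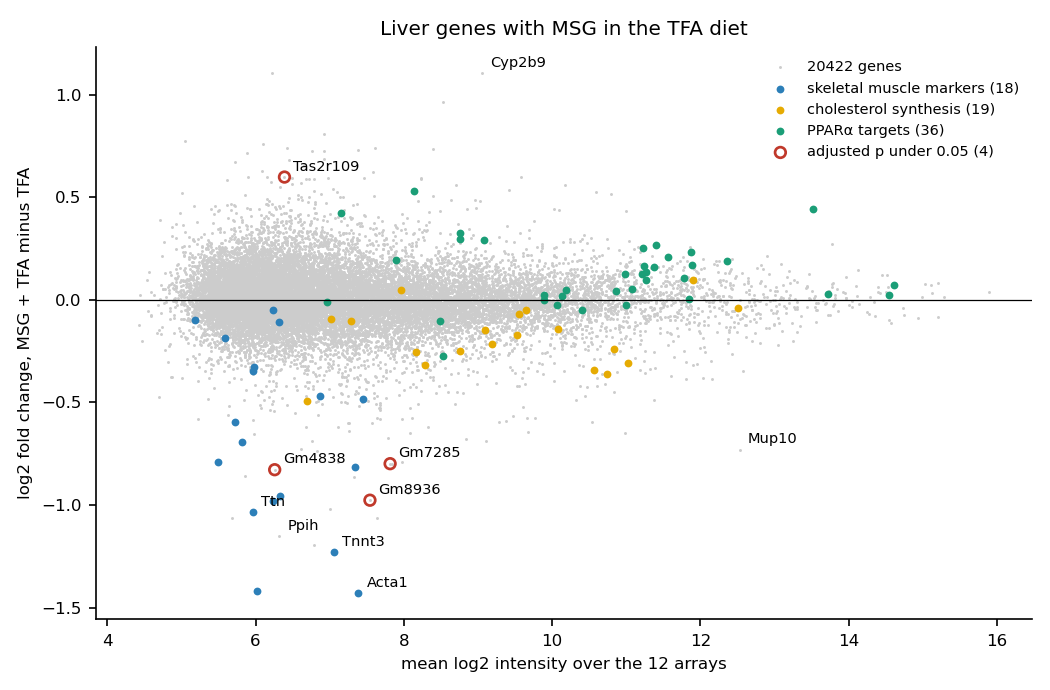
Mean log2 intensity over the 12 arrays (x axis) against the log2 fold change of MSG + TFA over TFA (y axis) for 20422 genes, with 4 genes at an adjusted p under 0.05 ringed. The 18 skeletal muscle markers (blue) all lie below 0, 17 of the 19 cholesterol synthesis genes (yellow) lie below 0, and 29 of the 36 PPARα target genes (green) lie above it.

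Tas2r109, which encodes a bitter taste receptor, was the gene that rose. Its log2 intensity was 5.95, 5.99 and 6.05 in the TFA pools and 6.63, 6.64 and 6.52 in the MSG + TFA pools. The 2 groups did not overlap, and MSG + TFA livers were 1.51-fold higher (log2 fold change 0.60, standard error 0.0810, limma adjusted p = 0.0187). Only 1 probe set reads it, and its signal was dim, below that of the median gene. The ASP + TFA pools (6.50, 6.49 and 6.68) and the ASP + MSG + TFA pools (6.47, 6.37 and 6.38) also lay above every TFA pool. The adjusted p exceeded 0.05 when any one of the TFA or MSG + TFA pools was left out.

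The genes that fell were 3 gene models without a descriptive name, each read by a single probe set. Gm8936 had a log2 intensity of 8.32, 8.12 and 8.21 in the TFA pools and of 7.30, 7.14 and 7.29 in the MSG + TFA pools (log2 fold change -0.98, adjusted p = 0.00253). Gm4838 had 6.86, 6.65 and 6.90 against 6.05, 5.96 and 5.90 (log2 fold change -0.83, adjusted p = 0.00253). Gm7285 had 8.22, 8.24 and 8.49 against 7.50, 7.56 and 7.50 (log2 fold change -0.80, adjusted p = 0.00358). In all 4 differentially expressed genes it was the TFA pools that stood outside all the other 9 pools of the series, not the MSG + TFA pools. The ranges of the other 9 pools were 7.11 to 7.50 for Gm8936, 5.90 to 6.22 for Gm4838 and 7.40 to 8.04 for Gm7285. With genes read by a single probe set left out, an alternative chosen after seeing the data, limma called 0 of 18132 genes, whereas an unadjusted p under 0.05 was found for 395 on the high and 511 on the low side.

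The same feature ran through the less certain differences. Among the 622 genes lower at an unadjusted p under 0.05, the 3 TFA pools lay above all 9 other pools in 142, and the 3 MSG + TFA pools lay below all 9 others in 35. Among the 565 higher genes the corresponding counts were 103 for TFA and 24 for MSG + TFA. Over all 20422 genes the TFA pools were outside the rest in 209 genes above and 211 below, and the MSG + TFA pools in 47 above and 86 below. The ASP + TFA pools were outside in 226 above and 95 below, and the ASP + MSG + TFA pools in 152 above and 190 below. Standing apart was therefore not particular to the TFA pools, and was least frequent for MSG + TFA. Mrgprf, an orphan receptor related to Mas, was one of the leading genes in which the MSG + TFA pools stood apart. Its log2 intensity was 6.64, 6.56 and 6.59 in those pools, 7.14, 7.01 and 7.16 in the TFA pools and 6.76 to 7.16 over the 9 pools without MSG alone (log2 fold change -0.51, adjusted p = 0.143). The sperm-associated Speer3 (0.40, adjusted p = 0.366) and the histone gene Hist1h4h (0.44, adjusted p = 0.556) behaved likewise on the high side.

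**Figure D2:**
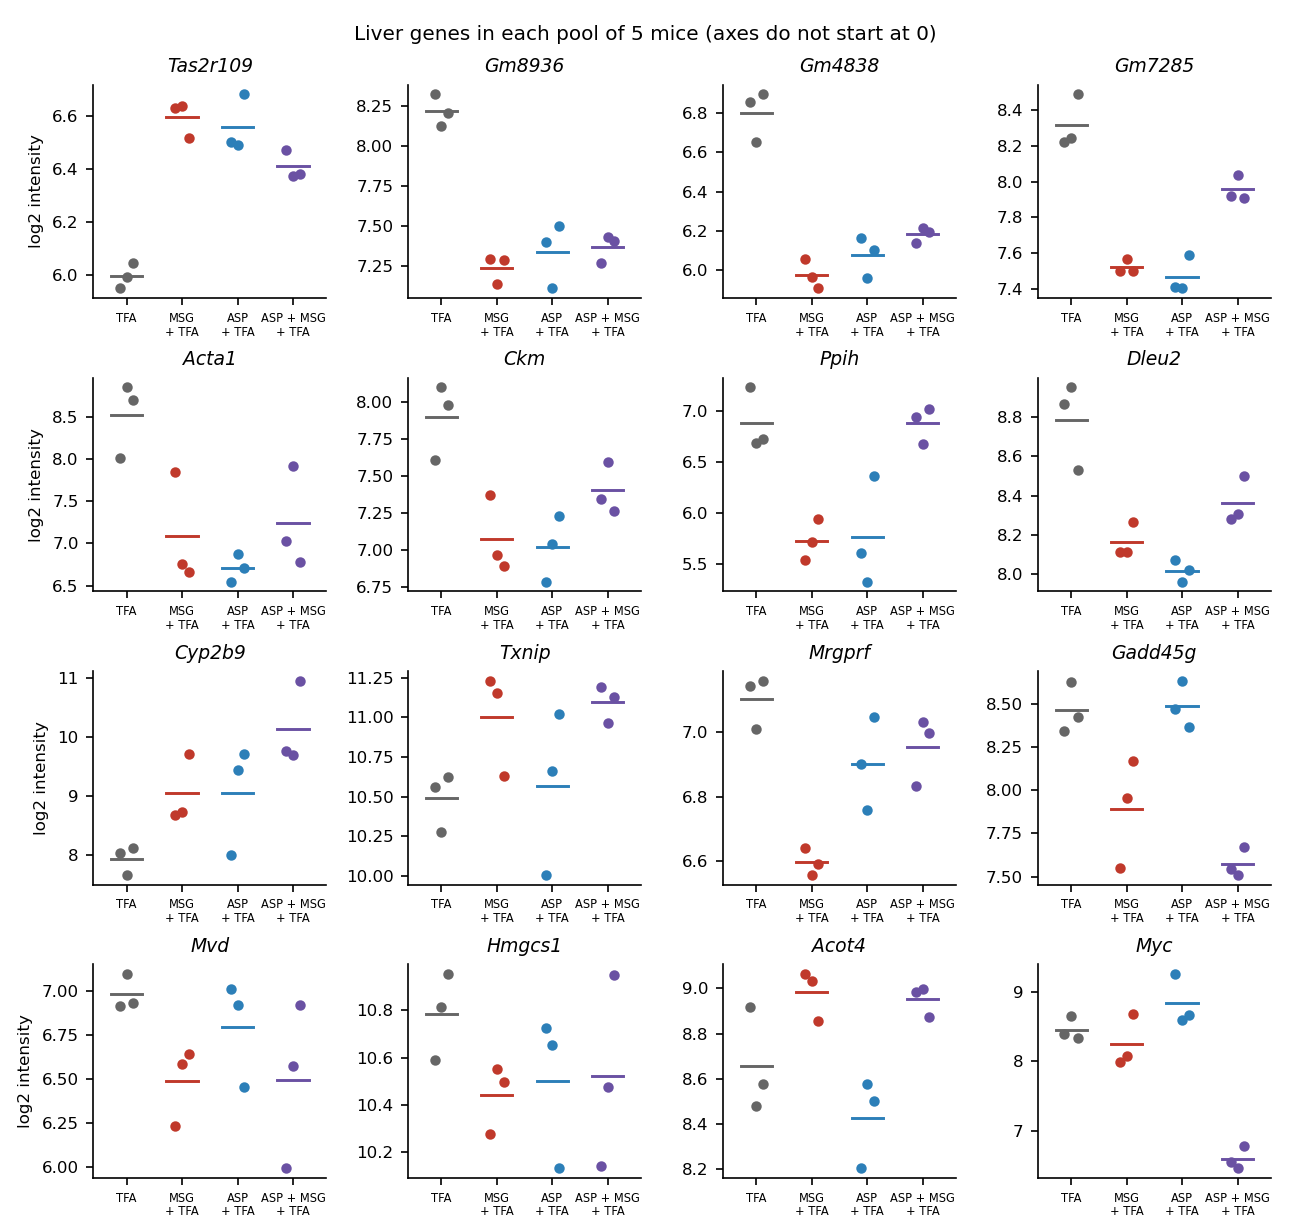
Log2 intensity (y axis, which does not start at 0) of 16 genes in each pool of 5 mice, with 3 pools per diet and the diet mean as a line. For Tas2r109, Gm8936, Gm4838 and Gm7285 the TFA pools lie apart from the other 9, whereas for Mrgprf the MSG + TFA pools do.

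Genes of taste and glutamate handling were examined next, since they are the ones closest to the additive. Of 34 bitter taste receptors, 26 had a positive and 8 a negative log2 fold change. Positive values were found in 51.3% of all genes and in 60.96% of genes read by a single probe set. Tas2r109 alone passed over all genes, and an unadjusted p under 0.05 was found for 4 members on the high side (2.77% of all genes) and 1 on the low side (3.05%). Of the 2290 genes read by a single probe set, as these receptors often are, the counts were 215 and 150. The list median was 0.11, beside 0.0036 for all genes and 0.055 for the genes read by a single probe set. Tas2r115 (0.29), Tas2r124 (0.25) and Tas2r129 (0.38) were next on the high side, and Tas2r104 (-0.44) on the low side. The receptors were dim, with a median log2 intensity of 6.35. Among 10 genes of umami and sweet sensing, 7 were positive with a median of 0.067. Gnat3, the taste G protein gustducin, had the largest value (0.35, adjusted p = 0.846), and the receptor subunits Tas1r1 and Tas1r3 were at 0.058 and 0.11.

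Enzymes and carriers of glutamate differed little. The median log2 fold change was 0.030 over 31 enzymes and 0.042 over 22 transporters, with none passing over all genes. Gclc, the rate-limiting enzyme that joins glutamate to cysteine in glutathione synthesis, had the smallest p of the enzymes. Its log2 intensity was 12.29, 12.21 and 12.44 in TFA and 12.56, 12.54 and 12.43 in MSG + TFA pools, which overlapped slightly (log2 fold change 0.20, standard error 0.0839, adjusted p = 0.817). Glul, the glutamine synthetase of pericentral hepatocytes, was at -0.15 (adjusted p = 0.941), and Oat, which makes glutamate from ornithine around the central vein, at -0.14. Among the carriers, Slc1a1 (0.21) and the lysosomal Slc38a7 (0.25) were higher at an unadjusted p under 0.05. All 7 measured urea cycle genes lay between -0.11 and 0.083, with a median of -0.043. Of 24 glutamate receptor genes, dim in liver, 11 were positive and 13 negative, with a median of -0.0074 and no unadjusted p under 0.05.

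Skeletal muscle genes made up the clearest group among the lower transcripts, although none of them passed over all genes. All 18 muscle markers had a negative log2 fold change, where 48.7% of all genes did, with a median of -0.64. In 15 of them every MSG + TFA pool lay below every TFA pool (6.75% of all genes), and the same number had an unadjusted p under 0.05. Acta1, the actin of skeletal muscle, had a log2 intensity of 8.01, 8.84 and 8.69 in TFA pools and of 7.85, 6.75 and 6.66 in MSG + TFA pools. The groups were separate but came close in MSG + TFA pool 1 (log2 fold change -1.43, standard error 0.320, adjusted p = 0.255). Ttn, the giant sarcomere protein titin, was lower in 294 of its 320 probe sets, 183 of them at an unadjusted p under 0.05, with pools of 6.44, 7.10 and 6.79 against 6.09, 5.56 and 5.58 (log2 fold change -1.03, adjusted p = 0.143). These probe sets were read on the same arrays and are not independent. Without MSG + TFA pool 1, whose muscle signal was the highest of its diet, Ttn, Tnnt3 and Tnnc2 passed (limma adjusted p = 0.0404, 0.0126 and 0.0297).

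Other contractile and energy genes of muscle followed. The fast troponins Tnnt3 (-1.23) and Tnnc2 (-0.95), the calcium pump Atp2a1 (-0.98), the myosin light chain Myl1 (-1.42) and the creatine kinase Ckm (-0.82) were among the largest. Ckm, which buffers ATP in muscle, had 7.61, 8.09 and 7.98 in TFA against 7.37, 6.96 and 6.90 in MSG + TFA pools, with no overlap (adjusted p = 0.198). Muscle genes outside the marker list, among them myoglobin (Mb, -1.20), the glycogen phosphorylase Pygm (-0.44), the cytochrome oxidase subunit Cox8b (-0.86), Ankrd23 (-0.74), Mustn1 (-0.58) and the small heat shock protein Cryab (-0.41), were also separated between the groups. Their adjusted p lay between 0.198 and 0.375. They were named for a small p or for separated pools, so their separation follows from that choice. The myosin light chain Mylpf (-0.10), the calcium buffer Casq1 (-0.11) and Myoz1 (-0.052) were the 3 markers whose groups overlapped.

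The promoter of Acta1 is shown because this gene had the largest difference of the muscle group. In RefSeq promoters (build GRCm38.p6), the 200 bases before the start were searched for short motifs. The CArG box bound by serum response factor and the E-box CAGCTG bound by myogenic factors were sought on both strands. TATAAA was sought on the strand of the gene only. The Acta1 stretch lies at chr8:123894776-123894975 and is printed on the strand of the gene, with its CArG box in capitals.
Acta1: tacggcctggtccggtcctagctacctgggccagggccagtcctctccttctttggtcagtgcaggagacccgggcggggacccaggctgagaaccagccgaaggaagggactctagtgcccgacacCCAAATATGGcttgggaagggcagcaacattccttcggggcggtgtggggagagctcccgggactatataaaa
Of the 18 muscle markers 13 had a promoter in the table. A CArG box was found in 2 of them (15.4%), Acta1 and Myh4, and in 1.14% of 27025 promoters. CAGCTG was found in 4 (30.8%, against 10.6%) and TATAAA in 3 (23.1%, against 6.76%), each counted on its own. The matches describe letters in this window only.

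The level of muscle transcripts in each pool is given beside these genes. The mean of the 18 markers was 6.55, 6.95 and 6.80 in the TFA pools, 6.37, 5.96 and 5.97 in the MSG + TFA pools, 5.91, 6.02 and 6.13 in the ASP + TFA pools and 6.15, 6.44 and 6.07 in the ASP + MSG + TFA pools. Every TFA pool was above the other 9. With this mean as a covariate, Tas2r109, Gm8936 and Gm4838 had an adjusted p of 0.249 and Gm7285 of 0.275, with log2 fold changes of 0.68, -0.96, -0.83 and -0.68. In bulk tissue, fewer cells of a type and less RNA per cell cannot be told apart. Whether the muscle transcripts, or the acinar ones below, came from liver cells or from other tissue was not tested. The part of the muscle level in the differences of other genes was not tested beyond this covariate.

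Pancreatic acinar transcripts varied widely between pools of the same diet. Of 12 acinar markers 11 were negative with a median of -0.46. The mean of these markers was 6.06, 7.36 and 7.38 in TFA and 6.72, 6.68 and 6.15 in MSG + TFA pools, which overlapped, and reached 8.86 in an ASP + TFA pool. The digestive enzyme Cpa1 ranged from 6.39 to 8.99 in TFA and from 6.46 to 7.73 in MSG + TFA pools (log2 fold change -0.79, standard error 1.07, adjusted p = 0.980). Hepatocyte markers were high and even, with means of 12.90, 12.85 and 12.79 in TFA and 12.75, 12.86 and 12.85 in MSG + TFA pools over 16 genes such as albumin and transthyretin, and a median log2 fold change of -0.012. Kupffer cell markers had a median of -0.078, with 11 of 14 negative, and the macrophage lysozyme Lyz2 was at -0.26 (adjusted p = 0.761). The medians of the endothelial (0.017), stellate and fibroblast (-0.023), bile duct (-0.065), lymphocyte (-0.017), neutrophil (0.014), erythroid (-0.089) and adipocyte (0.038) markers were small. Of the stellate list, Des, the muscle intermediate filament desmin, was lowest at -0.45.

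**Figure D3:**
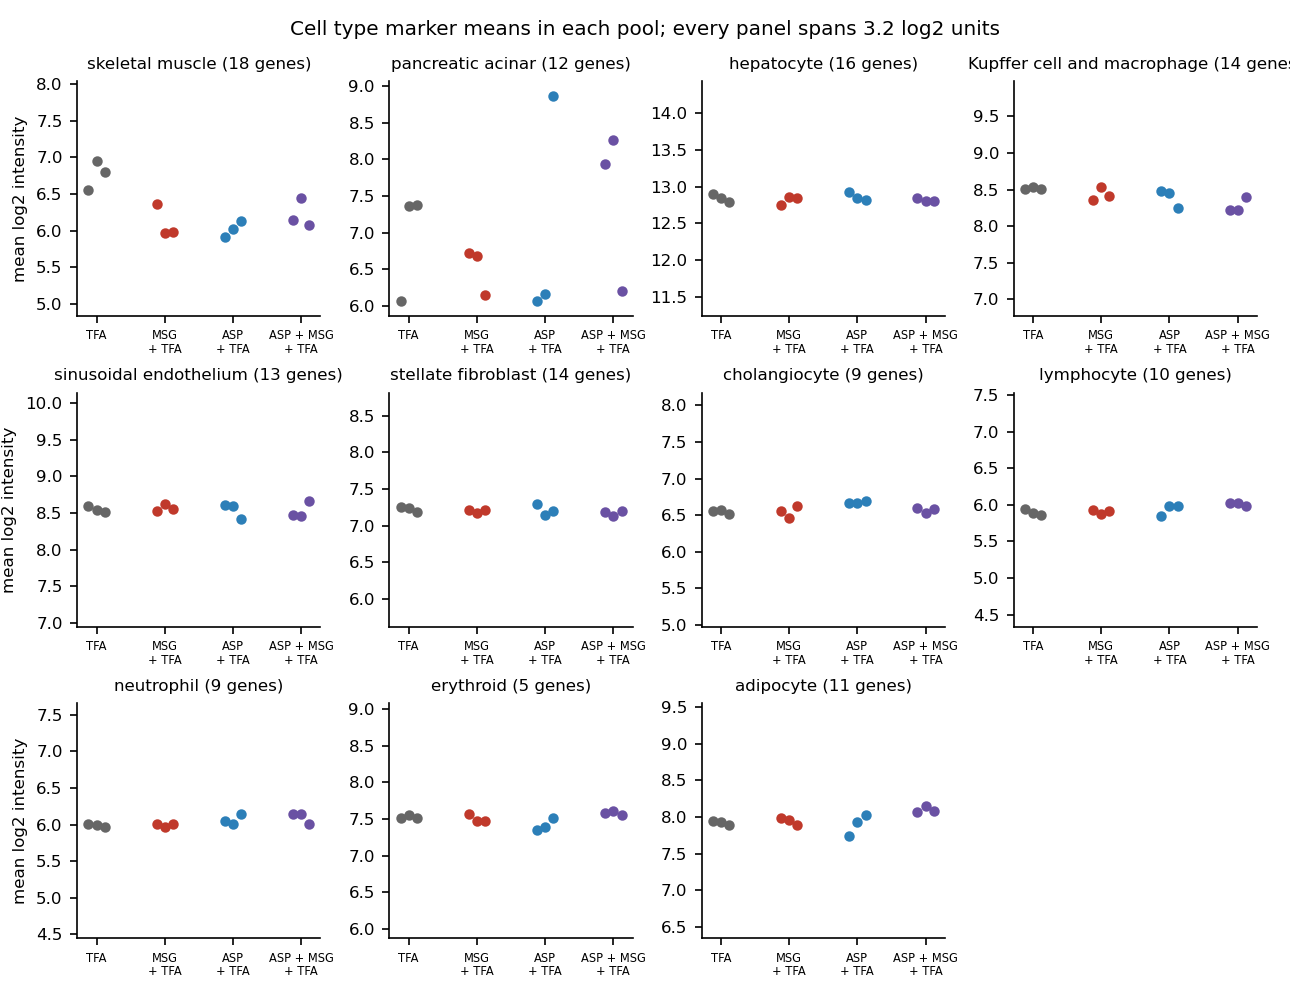
Mean log2 intensity (y axis, each panel spanning 3.2 units) of 11 cell type marker lists in the 12 pools, by diet. The skeletal muscle mean is above 6.5 in the 3 TFA pools and at or below 6.44 in the other 9, the acinar mean scatters within diets, and the hepatocyte mean stays between 12.75 and 12.92.

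PPARα target genes, which serve fatty acid oxidation, uptake and storage, were mostly on the high side with MSG. Of 36, 29 had a positive log2 fold change (51.3% of all genes), the median was 0.12, and 6 had no overlap on the high side (6.45%) and 0 on the low side (6.75%). None passed over all genes. Cyp4a14, a fatty acid ω-hydroxylase that is among the most PPARα-responsive genes in mouse liver, had 13.54, 12.98 and 13.23 in TFA and 13.65, 13.76 and 13.67 in MSG + TFA pools, with no overlap (log2 fold change 0.44, adjusted p = 0.872). The peroxisomal enzyme Ehhadh had 11.80, 11.61 and 11.94 against 11.97, 12.00 and 12.07, also without overlap (0.23, adjusted p = 0.856). The acyl-CoA thioesterase Acot4 had 8.92, 8.48 and 8.58 against 9.06, 9.03 and 8.86, and here TFA pool 1 reached into the MSG + TFA range (0.33, standard error 0.123, adjusted p = 0.761). Its relatives Acot3 (0.53) and Acot2 (0.29), the mitochondrial gatekeeper Cpt1a (0.17) and Vnn1 (0.26) were positive as well. Pdk4, which spares glucose by blocking pyruvate dehydrogenase, went the other way at -0.27 (adjusted p = 0.878).

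The Acot4 promoter is shown as that of the PPARα target with the smallest p. It lies at chr12:84038179-84038378, printed on the strand of the gene, and the capitals mark the letters AGGTCA, bound by nuclear receptors such as PPARα with its partner RXR, read here on the opposite strand.
Acot4: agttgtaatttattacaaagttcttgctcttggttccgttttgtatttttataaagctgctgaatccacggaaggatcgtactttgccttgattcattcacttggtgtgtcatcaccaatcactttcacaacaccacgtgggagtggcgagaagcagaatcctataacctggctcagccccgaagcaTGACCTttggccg
These letters were found in 4 of 29 PPARα target promoters (13.8%), against 11.2% of all promoters.

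Fat synthesis, storage and transport showed smaller differences. The median was 0.049 over 23 genes of fatty acid and triglyceride synthesis, of which 15 were positive. Scd1, which desaturates stearic acid, had 13.77, 13.64 and 13.47 in TFA and 14.01, 14.04 and 13.65 in MSG + TFA pools, overlapping between the groups (0.27, adjusted p = 0.870). The medians were 0.053 over 17 lipid droplet and lipolysis genes, with the droplet protein Cidec at 0.30, and 0.045 over 16 apolipoprotein genes, with Apoc1 at 0.16. For 17 genes of lipid uptake the median was 0.043. Lipoprotein lipase, Lpl, was lower in all MSG + TFA pools (6.95, 7.08 and 6.76) than in any TFA pool (7.16, 7.42 and 7.19), at -0.33 (adjusted p = 0.786). Fabp4, a carrier of fatty acids, was at -0.17. Both are abundant in muscle or fat, and their levels stood beside the muscle means given above.

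Cholesterol synthesis stood on the low side. The list held 19 genes, of which 17 were enzymes of the path to cholesterol. The enzymes all had a negative log2 fold change, and the regulators Srebf2 (0.046) and Insig1 (0.10) a positive one whose sign changed under some alternatives. The median of the 19 was -0.17, and in 7 every MSG + TFA pool lay below every TFA pool (6.75% of all genes). None passed over all genes, and 1 had an unadjusted p under 0.05 on the low side, where 3.05% of all genes did. That gene was Mvd, the mevalonate decarboxylase, with 6.92, 7.10 and 6.93 in TFA and 6.23, 6.59 and 6.64 in MSG + TFA pools (log2 fold change -0.50, standard error 0.201, adjusted p = 0.798) and all of its 10 probe sets lower. Squalene synthase, Fdft1, had 10.98, 11.14 and 11.07 against 10.61, 10.94 and 10.56 (-0.36, adjusted p = 0.863). Hmgcs1, which makes the precursor of mevalonate, had 10.59, 10.81 and 10.96 against 10.28, 10.55 and 10.50 (-0.34, adjusted p = 0.890). Neither overlapped, although the gaps were small beside the spread within a diet. Squalene epoxidase Sqle (-0.32), Dhcr7 (-0.25), Cyp51 (-0.22) and Hsd17b7 (-0.17) were separated in the same direction. The list median was negative under every alternative, from -0.45 to -0.15.

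The Hmgcs1 promoter is shown because it was the member in which the letters CACCCCAC, the core of a sterol regulatory element, were found. It lies at chr13:119690151-119690350, on the strand of the gene, with the core in capitals.
Hmgcs1: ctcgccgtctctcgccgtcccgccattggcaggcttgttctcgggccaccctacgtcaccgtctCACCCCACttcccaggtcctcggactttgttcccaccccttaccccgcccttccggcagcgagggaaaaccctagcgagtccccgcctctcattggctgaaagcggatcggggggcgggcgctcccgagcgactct
The core was found in 1 of 16 promoters of the list (6.25%) and in 2.08% of all promoters.

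Bile acid and sterol export genes were uneven. Of 24 genes, 14 were positive, near the 51.3% of all genes, and 5 had no overlap on the high side (6.45% of all genes), with a median of 0.041. Abcc3, which exports bile acid conjugates to blood, had 11.00, 10.76 and 10.76 in TFA and 11.02, 11.14 and 11.21 in MSG + TFA pools, a small but complete separation (0.28, adjusted p = 0.676). The sterol exporters Abcg5 and Abcg8, which form one transporter, were at 0.30 and 0.30, and the uptake carrier Slco1a4 at 0.36. Of 24 genes of glucose production and insulin signalling, 14 were positive with a median of 0.034. Pyruvate carboxylase, Pcx (0.22), and the liver glycogen synthase Gys2 (0.23) had the smallest p.

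Protein folding genes were lower in most cases. Of 26 genes of the unfolded protein response, 21 were negative with a median of -0.14. Creld2, secreted under stress of the endoplasmic reticulum, had 9.80, 10.27 and 10.10 in TFA and 9.26, 9.22 and 9.96 in MSG + TFA pools, and MSG + TFA pool 3 overlapped the TFA range (-0.58, standard error 0.237, adjusted p = 0.806). The transcription factor Xbp1 (-0.18) was separated between the groups by a narrow gap, and Pdia4 (-0.33) and Calr (-0.20) were negative too. Trib3, a pseudokinase induced by amino acid shortage and stress, lay on the other side at 0.25 (adjusted p = 0.795).

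Heat shock genes were negative with a single exception. Of 14, 13 were below 0, with a median of -0.10. Dnajb1, a co-chaperone of Hsp70, had 7.41, 8.21 and 8.37 in TFA and 7.29, 7.51 and 7.39 in MSG + TFA pools, and the difference rested on TFA pools 2 and 3 (-0.60, standard error 0.225, adjusted p = 0.761). Hspa4l, an exchange factor for Hsp70, had 8.11, 8.36 and 8.25 against 7.83, 7.99 and 8.04 without overlap (-0.29, adjusted p = 0.780). The core of the heat shock element, GAANNTTC, was found in 3 of 10 promoters of the list (30%), against 5.41% of all promoters. The member shown is Hspe1, the mitochondrial chaperonin cofactor (log2 fold change -0.19, adjusted p = 0.950), whose stretch lies at chr1:55087948-55088147 with the element in capitals.
Hspe1: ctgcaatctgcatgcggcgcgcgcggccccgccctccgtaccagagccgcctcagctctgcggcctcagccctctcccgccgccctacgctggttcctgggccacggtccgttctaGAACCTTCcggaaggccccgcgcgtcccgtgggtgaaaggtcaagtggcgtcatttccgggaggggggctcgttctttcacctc

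Antioxidant genes under NRF2 were on the high side. Of 26, 21 were positive with a median of 0.081, and 5 had an unadjusted p under 0.05 on the high side (2.77% of all genes) while none passed over all genes. NRF2 itself, Nfe2l2, was at 0.22, the glutathione transferases Gstm1 and Gstm3 at 0.26 and 0.30, and the epoxide hydrolase Ephx1, with 11.77, 11.62 and 11.84 in TFA and 12.06, 11.98 and 11.86 in MSG + TFA pools, at 0.22 (adjusted p = 0.825). The Gstm genes are close paralogs, and their probe sets may share signal.

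Immediate early genes had a median near that of all genes (-0.041 over 30), but 5 members were lower and 0 higher at an unadjusted p under 0.05, beside 3.05% and 2.77% of all genes. Gadd45g, a growth arrest gene induced by stress and fasting, had 8.34, 8.63 and 8.43 in TFA and 7.55, 7.96 and 8.17 in MSG + TFA pools, fully separated but with a wide spread among the MSG + TFA pools (-0.58, standard error 0.136, adjusted p = 0.306). The antiproliferative Btg2 had 8.77, 9.12 and 8.91 against 8.54, 8.71 and 8.47 (-0.36, adjusted p = 0.510). The AP-1 subunits Junb (-0.33, adjusted p = 0.535) and Jund (-0.30, adjusted p = 0.750) were separated as well, and the polo-like kinase Plk3 was at -0.33. Of 17 p53 targets the median was -0.030, with the leucine sensor Sesn2 at 0.26. It was -0.058 over 24 apoptosis genes, where the inhibitor Birc2 was at -0.26, and 0.0017 over 33 cell cycle genes, where Ccne2 was at -0.27.

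Cyp2b9, a steroid hydroxylase that is far more abundant in female than in male mouse liver, had the largest positive difference among the brighter named genes. Its log2 intensity was 8.04, 7.67 and 8.13 in TFA and 8.69, 8.74 and 9.72 in MSG + TFA pools, with all of its 7 probe sets higher. The groups did not overlap, but MSG + TFA pool 3 was well above the other 2, and the test did not pass (2.15-fold, log2 fold change 1.10, standard error 0.415, adjusted p = 0.761). Close paralogs of the Cyp2b cluster may share its signal. Of 15 female-biased liver genes, 12 were positive with a median of 0.081. The peroxisomal transporter Abcd2 had 8.58, 7.50 and 8.40 against 9.28, 9.26 and 8.15, and these ranges overlapped (0.74, standard error 0.349, adjusted p = 0.861).

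Male-biased genes leaned the other way. Of 18, 13 were negative, where 48.7% of all genes were, with a median of -0.15. Only 1 was separated on the low side (6.75% of all genes), and 1 had an unadjusted p under 0.05 there (3.05%). The list mean overlapped between the groups, at 12.00 to 12.20 in TFA and 11.84 to 12.14 in MSG + TFA pools. The selenium-binding protein Selenbp2 had 11.11, 11.65 and 11.57 in TFA and 10.53, 10.53 and 11.31 in MSG + TFA pools, with an overlap through pool 3 (-0.65, standard error 0.309, adjusted p = 0.861). The glucuronosyltransferase Ugt2b38 had 11.87, 11.86 and 12.07 against 11.65, 11.65 and 11.65, completely separated (-0.28, adjusted p = 0.689). The oxysterol hydroxylase Cyp7b1 was at -0.26. Outside the list, a major urinary protein, Mup10, had 12.97, 12.75 and 13.23 against 11.65, 12.44 and 12.68 (-0.73, adjusted p = 0.758), from a family whose copies are nearly identical. Mup10 was named for a small p or for separated pools, so its separation follows from that choice. Growth hormone sets the sex bias of mouse liver through STAT5B. Of 14 genes of its axis, 11 were negative with a median of -0.072. The transcription factor Onecut1 (-0.29) had the smallest p there, Stat5b was at -0.16, and Igf1 was at 0.062.

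Drug metabolism genes had medians near 0. The median was 0.049 over 28 cytochrome P450 genes and their regulators, of which 4 were separated on the high side (6.45% of all genes) and 0 on the low side (6.75%). It was 0.023 over 31 conjugating enzymes. Ugt1a5, a glucuronosyltransferase, had 10.30, 10.22 and 10.47 in TFA and 10.97, 10.99 and 10.62 in MSG + TFA pools (0.53, standard error 0.144, adjusted p = 0.485). It shares its last exons with the other genes of the Ugt1a cluster. The sulfotransferase Sult3a1, a female-biased gene near the lowest signals of the array, was at 0.26.

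Several genes with a small p belonged to the nucleus and the mitochondrion. Ppih, a cyclophilin of the spliceosome, had 7.24, 6.69 and 6.73 in TFA and 5.54, 5.71 and 5.95 in MSG + TFA pools (2.22-fold lower, log2 fold change -1.15, standard error 0.221, adjusted p = 0.198). Its adjusted p was 0.0357 when only the 6 arrays compared were fitted and 0.0220 without ASP + TFA pool 3. Only 1 probe set reads it, and 42 genes of RNA polymerase II, mediator and splicing had a median of -0.041. Dleu2, a noncoding RNA that hosts the microRNAs miR-15a and miR-16, had 8.87, 8.95 and 8.53 against 8.11, 8.11 and 8.26 (-0.62, adjusted p = 0.143), also on a single probe set. Atp5j, coupling factor 6 of ATP synthase, had 9.84, 10.02 and 9.57 against 10.13, 10.57 and 10.41 on 1 probe set (0.56, adjusted p = 0.266). Of 73 subunits of oxidative phosphorylation, 47 were negative with a median of -0.033, and 8 were separated on the low side (6.75% of all genes), against 1 on the high side (6.45%).

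Txnip, which binds thioredoxin and restrains glucose uptake, had 10.56, 10.28 and 10.62 in TFA and 11.23, 11.16 and 10.63 in MSG + TFA pools, with all of its 12 probe sets higher but MSG + TFA pool 3 barely above the TFA range (0.52, standard error 0.213, adjusted p = 0.806). Notch1, a receptor of cell fate and vessel patterning, had 7.40, 7.07 and 7.20 against 7.52, 7.66 and 7.73, and 32 of its 35 probe sets were higher (0.41, adjusted p = 0.485). The vessel growth list as a whole, 30 genes, had a median of 0.018. Other genes that led the higher side were Krtap24-1 (0.55) and Krtap4-16 (0.48), keratin-associated genes of hair, the GTPase Arl9 (0.41), the chromatin protein Bahd1 (0.30), the vesicle protein Pldn (0.33), H2-M10.2 (0.36), the casein kinase sequence Csnk2a1-rs2 (0.40), Zfp280b (0.41), the lens gene Crygf (0.44), Phyhd1 (0.59) and Tmsb15b1 (0.81). On the lower side were Tdpoz2 (-1.02), the germ cell gene Nanos2 (-0.45), the mitochondrial peptidase Immp1l (-0.64) and the pseudogene Rpl32-ps (-0.60). All 15 were separated between the groups, where 6.45% of all genes were on the high and 6.75% on the low side. These genes were chosen for a small p or for separated pools, so their separation follows from that choice. None passed over all genes.

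Clock genes leaned to the high side. Of 18, 14 were positive with a median of 0.10, which was -0.055 with the muscle mean as a covariate. The repressor Nr1d1 had 8.93, 8.97 and 8.78 in TFA and 9.39, 9.54 and 9.22 in MSG + TFA pools (0.49, adjusted p = 0.872), Nr1d2 was at 0.28, and Cry1 at -0.25 and Arntl at -0.29 were on the other side. The hour at which each pool was collected was not given in the sources used here. Of 30 acute phase genes, 21 were negative with a median of -0.061, while serum amyloid Saa1, read by 1 dim probe set, had 5.14, 5.85 and 5.33 against 6.53, 6.02 and 6.06 (0.76, adjusted p = 0.741). Of 29 interferon-induced genes the median was 0.022, with Ifi44 (0.26) and Mx2 (0.27) higher and Oas1a (-0.25) and Irf9 (-0.24) lower at an unadjusted p under 0.05. The 35 genes that the study itself names for liver had a median of 0.086 with 27 positive. They were chosen in part on these same arrays and are not independent evidence of a direction.

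**Figure D4:**
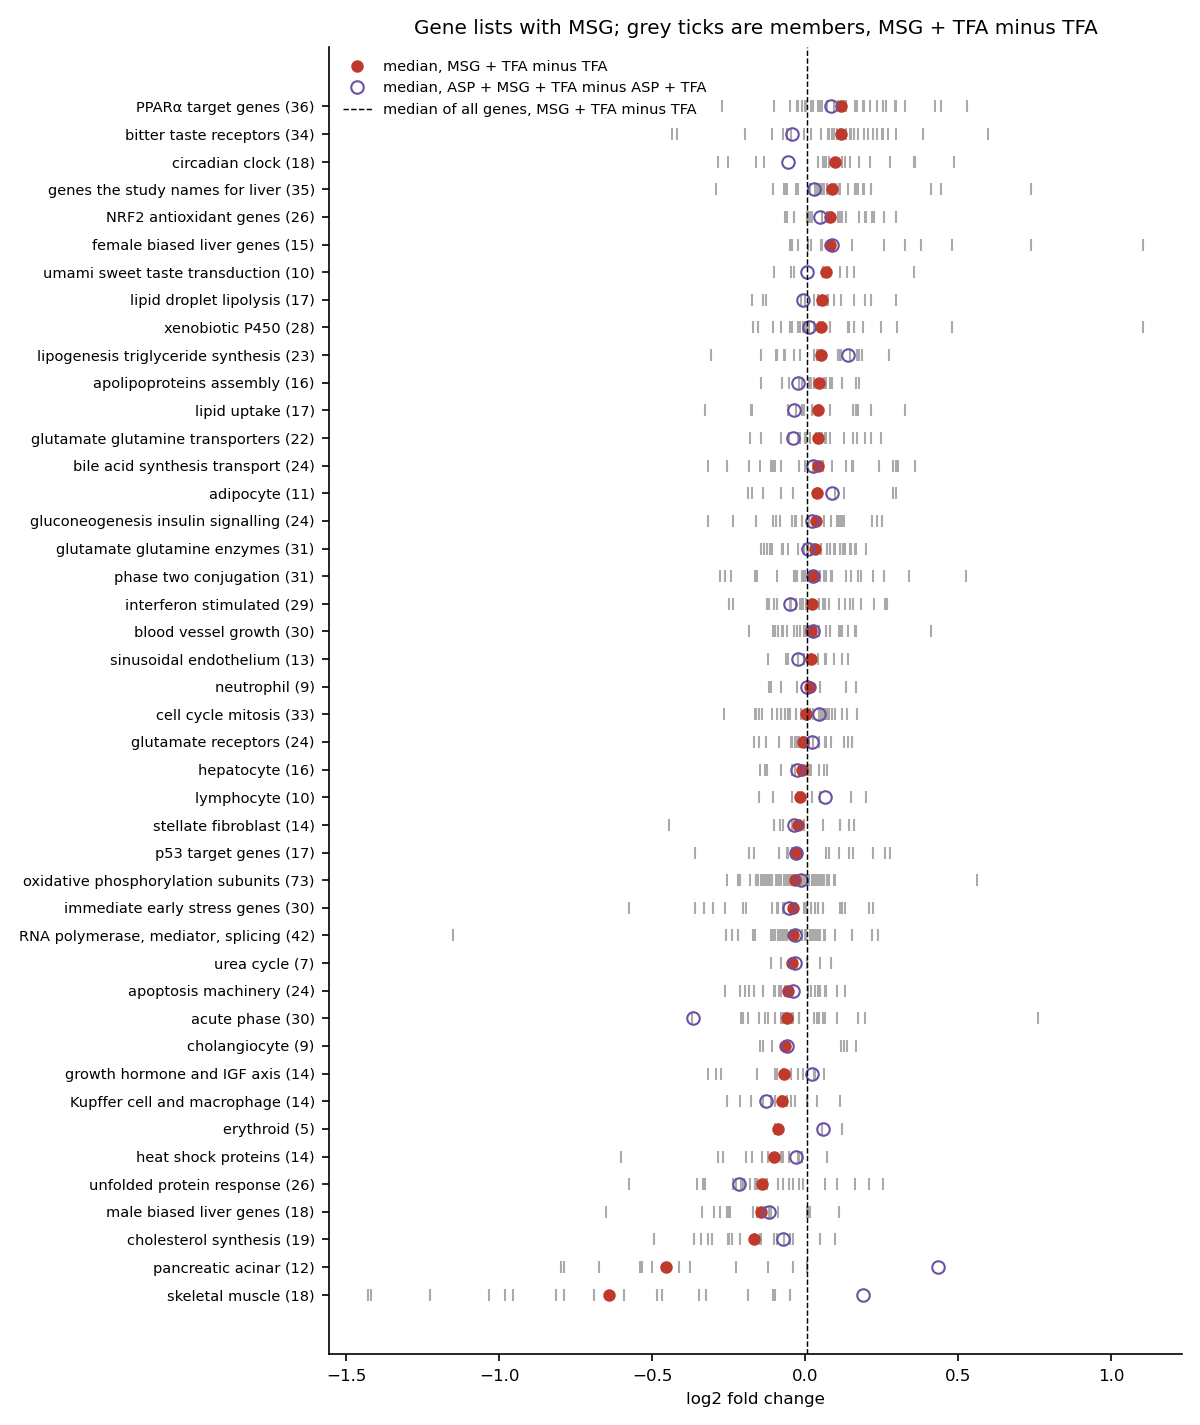
Log2 fold change (x axis) of the members of 44 gene lists (grey ticks, MSG + TFA minus TFA), with the list median in red and the median of the same list for ASP + MSG + TFA minus ASP + TFA as an open circle; the dashed line is the median of all genes, 0.0036. The skeletal muscle and acinar medians lie farthest below and change side with aspartame, whereas the PPARα, cholesterol synthesis and unfolded protein response medians keep theirs.

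MSG was also added to aspartame, which gave a second measurement in 6 other pools. ASP + MSG + TFA livers differed from ASP + TFA livers in 5 of 20422 genes (0.0245%), all lower, at an adjusted p under 0.05 (unadjusted p under 0.05 for 3.35% on the high and 5.06% on the low side). Without ASP + TFA pool 3, which had the highest acinar mean, the count was 45. The genes were Myc (log2 fold change -2.23), Phlda1 (-1.21), Gadd45g (-0.92), Foxq1 (-0.82) and Gm8785 (-0.54). Against TFA, MSG alone gave -0.21 for Myc, -0.11 for Phlda1 and -0.074 for Foxq1, with adjusted p of 0.966, 0.980 and 0.980. MSG alone also separated the pools for Gadd45g, in the same direction, and for Gm8785, in the opposite direction (0.22). Across genes the 2 effects of MSG had a Pearson correlation of -0.025 over 20422 genes, which are not independent replicates. Of the 1187 genes with an unadjusted p under 0.05 for MSG alone, 41.4% had the same direction with aspartame, and 49.2% of all genes did. In 65 genes the unadjusted p was under 0.05 in both comparisons with the same direction, and in 130 with the opposite direction.

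The difference between the 2 effects passed for 14 genes (0.0686%) at an adjusted p under 0.05, beside 7.39% of genes at an unadjusted p under 0.05. The count was 0 with the muscle mean as a covariate, 1 with brighter probe sets only, 1 without ASP + MSG + TFA pool 2 and 142 with array weights. The muscle mean overlapped with the diet, so the 0 does not show that muscle content explains the difference. Ppih was lower with MSG alone and higher when MSG was added to aspartame (1.11), an interaction of 2.26 on the log2 scale (adjusted p = 0.0151). For Tas2r109 the log2 fold change with aspartame was -0.15 (interaction -0.75, adjusted p = 0.0295), and for Gm8936, Gm4838 and Gm7285 it was 0.033, 0.11 and 0.49. Dleu2 was at 0.34 with aspartame (interaction 0.96, adjusted p = 0.0365). Of the muscle markers 16 of 18 were positive with aspartame, where 44.9% of all genes were, with a median of 0.19. Acta1 (0.53, interaction adjusted p = 0.182) and Ttn (0.26, 0.103) did not pass the test of the difference.

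Some groups had the same sign in both backgrounds, and others changed sign. PPARα targets had a median of 0.082 with aspartame (28 of 36 positive), unfolded protein response genes -0.22 (25 of 26 negative, where 55.1% of all genes were), and male-biased and female-biased genes -0.12 and 0.085. NRF2 targets were at 0.048 and cholesterol synthesis at -0.073, where 12 of 19 were negative. The median of all genes in that comparison was -0.016. Acute phase genes were at -0.37 with aspartame and bitter taste receptors at -0.044. Among the lists that changed sign was the growth hormone axis, at 0.023 with aspartame (8 of 14 positive). Clock genes (-0.058) and lipid uptake (-0.039) changed sign too. Among single genes with the same direction in both, Cyp2b9 was at 1.08 with aspartame (pools 8.02, 9.45 and 9.72 against 9.77, 9.70 and 10.96), Txnip at 0.53, Acot4 at 0.52, Abcd2 at 1.16 and Selenbp2 at -0.86, close to or larger than with MSG alone. For Cyp2b9 and Txnip the pools of the aspartame diets overlapped. Ppih, Tas2r109 and Dleu2, given above, changed direction.

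The pools were separated the same way in both backgrounds, with an unadjusted p under 0.05 in each, in 28 of 20422 genes, 11 higher and 17 lower. By that p alone, 65 genes had the same direction in both and 130 the opposite one, so opposite directions were the more common. With aspartame 4.31% of all genes were separated on the high and 6.63% on the low side. Gadd45g was the lower one with the smallest p, at 8.47, 8.64 and 8.37 in ASP + TFA and 7.54, 7.51 and 7.67 in ASP + MSG + TFA pools. Aadat, an aminotransferase that converts kynurenine and aminoadipate with glutamate as its product, was chosen for naming after its values were seen. Its log2 intensity was 11.12, 11.26 and 11.02 in TFA, 10.65, 10.80 and 10.89 in MSG + TFA, 11.14, 10.93 and 10.81 in ASP + TFA and 10.60, 10.60 and 10.59 in ASP + MSG + TFA pools. The pools with MSG were below their own controls in both comparisons, with log2 fold changes of -0.35 (adjusted p = 0.503) and -0.36 (adjusted p = 0.342). Aplp2, a relative of the amyloid precursor, also chosen after its values were seen, was higher in both (0.21 and 0.23).

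**Figure D5:**
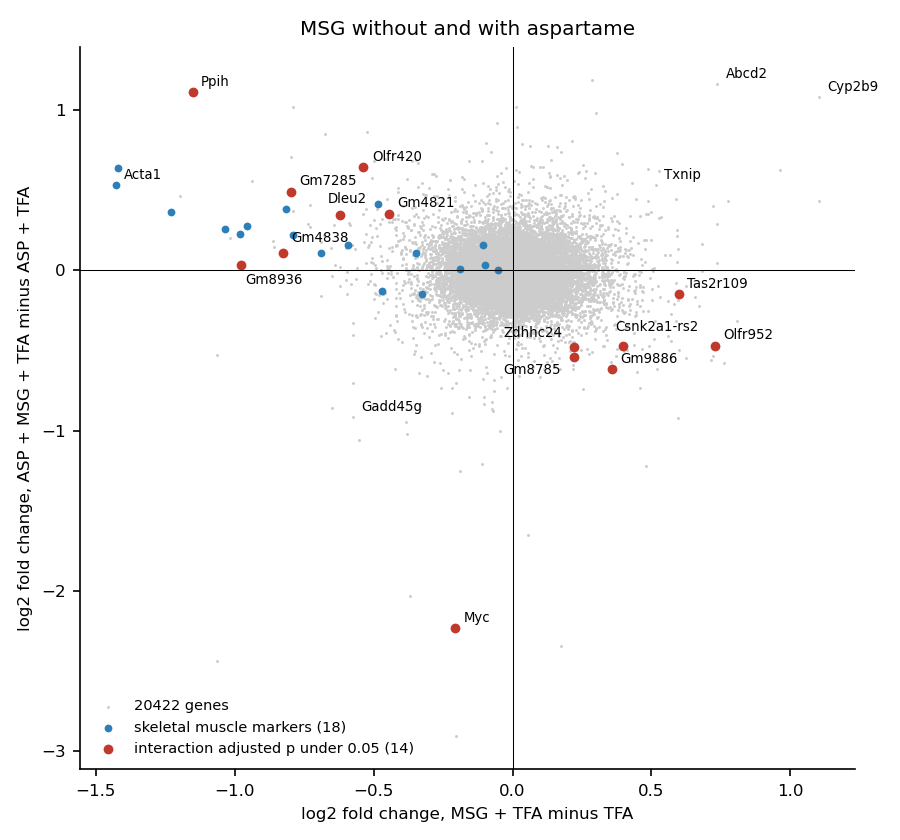
Log2 fold change of MSG + TFA over TFA (x axis) against that of ASP + MSG + TFA over ASP + TFA (y axis) for 20422 genes. The 14 genes whose 2 effects differed at an adjusted p under 0.05 (red) lie away from the diagonal, skeletal muscle markers (blue) lie to the left and mostly above 0, and Cyp2b9, Txnip and Abcd2 lie on the same side in both comparisons.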

How the data were processed

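Liver RNA from 12 pools of 5 mice, 3 pools per diet, was read on Affymetrix Mouse Gene 1.0 ST arrays. The deposited values were linear intensities, which the authors had made in Partek with GCRMA background correction and quantile normalization, so small shifts common to all genes cannot be seen. They were taken to log2. Of 241576 probe sets, 212138 had 1 gene symbol in the platform annotation, 4672 several and 24766 none, and only the first were averaged per gene. The log2 fold change and its p came from limma 3.58.1 in R 4.3.3 with 1 coefficient per diet over the 12 arrays, tested on simulated data. Of 1025 list entries, 968 were measured in 44 lists. Promoters were RefSeq sequences.

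The members and lists were chosen with earlier results of these data known. Genes were named where an adjusted p was under 0.05 in any comparison, as the 12 smallest p in each direction, as the 12 largest differences in each direction among genes at or above the median level with an unadjusted p under 0.05 and separated pools (unnamed gene models and olfactory receptors left out of both), or from each list the 4 with the smallest p and others described with it. Where named genes stand in 2 of these sets they count in both. Alternatives covered normalization, summarization, filters, variance models, marker covariates and leaving out each pool.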

Additional observations from a re-analysis of the deposited data

Results flagged for a closer look

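In 14 genes the effect of MSG in TFA mice and its effect in mice also given aspartame differed by the test of the difference itself (limma interaction, adjusted p under 0.05). Their number was 0 with the muscle mean as a covariate, which overlapped with the diet, 1 with brighter probe sets only and 1 without ASP + MSG + TFA pool 2. The values below are the effect with aspartame minus the effect without it, on the log2 scale. The difference was positive for Ppih (2.26), Gm7285 (1.29), the olfactory receptor gene Olfr420 (1.18), Gm8936 (1.01), Dleu2 (0.96), Gm4838 (0.94) and Gm4821 (0.80). It was negative for Myc (-2.03), the olfactory receptor gene Olfr952 (-1.20), Gm9886 (-0.97), Csnk2a1-rs2 (-0.87), Gm8785 (-0.76), Tas2r109 (-0.75) and the palmitoyltransferase-family gene Zdhhc24 (-0.70).

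For Olfr420 the pools were 7.87, 7.99 and 8.13 in TFA, 7.47, 7.57 and 7.34 in MSG + TFA, 7.32, 7.35 and 7.23 in ASP + TFA and 8.03, 8.10 and 7.70 in ASP + MSG + TFA. For Olfr952 they ranged from 6.84 to 7.11 in TFA, 7.53 to 7.78 in MSG + TFA, 7.66 to 7.72 in ASP + TFA and 6.91 to 7.41 in ASP + MSG + TFA. In both genes the pools with no additive and with both additives lay on one side and the pools with a single additive on the other. Zdhhc24, read by 4 probe sets, had the same order, with 6.52 to 6.71 in TFA, 6.77 to 6.89 in MSG + TFA, 6.84 to 7.01 in ASP + TFA and 6.42 to 6.51 in ASP + MSG + TFA. For Myc the ASP + MSG + TFA pools were the low ones, at 6.56, 6.47 and 6.79, against 8.33 to 8.64 in TFA, 7.99 to 8.68 in MSG + TFA and 8.59 to 9.25 in ASP + TFA.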

How the results depend on the processing

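The log2 fold changes of the named genes kept their direction under nearly all alternatives. The counts of differentially expressed genes and probe sets, being small, were less steady. Over the 5 counts, 69 alternatives stayed within 1.5 times of the value and 54 did not. The 1 higher gene became 2 with the acinar mean as a covariate or with array weights, 3 with only the arrays compared, and 0 with brighter probe sets, medians over probe sets, plain analysis of variance, genes with 2 or more probe sets, or the replicate block. Leaving out a pool gave 0 to 2, with 0 for every TFA and MSG + TFA pool and 2 without ASP + MSG + TFA pool 3. The 3 lower genes became 12 with array weights, 9 with only the arrays compared, and 0 with the muscle mean as a covariate, plain analysis of variance, or genes with 2 or more probe sets. Leaving out a pool gave 3 to 6, 5 when it was ASP + TFA pool 3 and 6 when it was MSG + TFA pool 1. Under the settings with 0, limma or the analysis of variance had between 371 and 667 higher and between 511 and 931 lower genes at an unadjusted p under 0.05, of 16961 to 20422 genes tested. An unadjusted cut passes many genes even where nothing differs, so these counts do not show remaining differences. Single probe sets gave 3 calls with trend and robust variance and 0 to 1 without a pool, the 1 without ASP + MSG + TFA pool 2.

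The 5 genes that differed with MSG added to aspartame became 3 with the acinar mean, brighter probe sets, linear means or only the arrays compared, 1 with medians, the muscle mean or plain analysis of variance, and 235 with array weights. Leaving out a pool gave 1 to 45, with 9 without ASP + MSG + TFA pool 3 and 2 or fewer without pool 1 or 2 of either aspartame diet, MSG + TFA pool 2, or TFA pool 1 or 3. The 14 interaction genes became 142 with array weights, 6 with the replicate block, 4 with medians, 2 with plain analysis of variance or genes with 2 or more probe sets, 1 with brighter probe sets and 0 with the muscle mean. Leaving out a pool gave 1 to 21, the lowest without ASP + MSG + TFA pool 2, and 3 to 8 when ASP + MSG + TFA pool 1, ASP + TFA pool 2, MSG + TFA pool 3, or TFA pool 1 or 2 was left out. The interaction could not be fitted with only the 6 arrays compared. The labels share replicate numbers, but same-numbered TFA and MSG + TFA pools did not deviate together (r = -0.17, -0.021 and 0.029 across genes), so the numbers were not treated as pairs. Under the replicate block, Tas2r109 had an adjusted p of 0.0815.

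With the muscle mean as a covariate, which itself contains Acta1, Myl1, Casq1, Mylpf and Myoz1, the log2 fold change was 0.25 for Acta1, 0.44 for Myl1, 0.11 for Casq1, 0.18 for Mylpf, 0.30 for Myoz1, 0.079 for Mb, 0.11 for Cox8b, 3.11 for Cpa1, 0.14 for Tas2r104, -0.047 for Abcg5, -0.21 for Abcg8, -0.046 for Slco1a4, -0.030 for Insig1, -0.26 for Srebf2 and -0.059 for Tmsb15b1, each opposite to the value in the report. With brighter probe sets it was 0.048 for Casq1, 0.28 for Mylpf, 0.22 for Myoz1, -0.042 for Slc1a1 and -0.14 for Tas1r1. Linear means gave 0.028 for Myoz1, -0.093 for Srebf2 and -0.11 for Tas1r1, and medians gave -0.061 for Sesn2 and -0.072 for Tas1r3. Leaving out a pool gave -0.023 to 0.13 for Tas1r1, negative without pool 1 of TFA or MSG + TFA, -0.31 to 0.041 for Phlda1, positive without MSG + TFA pool 1, -0.055 to 0.27 for Insig1, negative without TFA pool 1, and -0.025 to 0.19 for Srebf2, negative without MSG + TFA pool 2 or 3 or TFA pool 3. With the muscle mean, 13 lists with a positive median in the report had a negative one: endothelium (-0.22), lipogenesis (-0.15), gluconeogenesis (-0.14), bile acids (-0.12), interferon (-0.11), glutamate enzymes (-0.084), conjugation (-0.066), glutamate transporters (-0.061), P450 (-0.057), vessel growth (-0.058), clock (-0.055), lipid uptake (-0.035) and the study-named genes (-0.035). The opposite held for 5, acinar (1.89), erythroid (0.21), glutamate receptor (0.086), bile duct (0.050) and lymphocyte (0.049) genes. The PPARα (0.058 to 0.13), cholesterol synthesis (-0.45 to -0.15), unfolded protein response (-0.18 to -0.094), heat shock (-0.13 to -0.038) and NRF2 (0.046 to 0.15) medians kept their sign under every alternative run. The cause of these changes was not tested. The muscle mean was higher in every TFA pool than in the other pools, so that covariate overlapped with the diet. Counts and signs under it cannot be assigned to muscle content. With 3 pools per diet and a median standard error of 0.10 on the log2 scale, small differences were not detectable.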
